A study of Mus musculus with 12 samples.

Results

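The genes described here encode Polycomb repressive complex 2 and its germ cell inhibitor. They were chosen by name: the catalytic subunits Ezh1 and Ezh2, the core subunits Eed and Suz12, the accessory subunits Jarid2, Aebp2, Phf1, Mtf2 and Phf19, and the inhibitor Ezhip, which the array's annotation lists under an older name. All 10 were measured, each by 1 probe set, among 21587 genes. The 4 genotypes were Ring1-/-Rnf2F/FZp3-cre (double mutant), Ring1+/+Rnf2F/FZp3-cre (Rnf2 mutant), Ring1-/-Rnf2F/F (Ring1 mutant) and Ring1+/+Rnf2F/F (control), so that every group carried floxed Rnf2. Each genotype had 3 RNA samples, each from 50 oocytes at the germinal vesicle stage, before meiosis resumes. The Zp3 promoter drives Cre in growing oocytes only, so Rnf2 was deleted after oocyte growth had begun, while the Ring1 alleles were not conditional. Donors were superovulated females of 5 to 10 weeks and of mixed 129/Sv and C57BL/6J background, given 5 U PMSG 46 h before collection, and oocytes of several females were pooled. The oocytes were collected in M2 medium with 2.5 μM milrinone.

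Ring1 and Rnf2 are the ubiquitin ligases of Polycomb repressive complex 1, which marks histone H2A at repressed genes. Complex 2 is the second Polycomb machine and methylates lysine 27 of histone H3. Ezh1 or Ezh2 carries the methyltransferase domain, Suz12 is the scaffold, and Eed binds the methylated product and stimulates the enzyme. The complex exists in an arm with Jarid2 and Aebp2, which recognise ubiquitinated H2A, and in an arm with a Polycomb-like subunit, Phf1, Mtf2 or Phf19. Ezhip holds the enzyme in check through a stretch that resembles a mutant histone H3 tail. In the mouse oocyte, H3K27 methylation is laid down broadly and is carried into the embryo, where it silences the maternal allele of a small set of imprinted genes.

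Values are log2 intensities as the authors deposited them, so a difference of 1 is a 2-fold change. Probe sets of different genes are not compared in level. Rnf2 averaged 5.87 ± 0.17 in the double mutant and 5.86 ± 0.23 in the Rnf2 mutant, against 8.46 ± 0.06 in the Ring1 mutant and 8.33 ± 0.11 in control (SD, n = 3). Ring1 itself read 3.50 to 3.99 on all 12 arrays, around the 95th percentile of olfactory receptor genes (3.84), which stand in for silent genes, so it gives no check of its genotype. All 10 complex 2 genes had a mean above that percentile, as did 12679 genes in all. Arrays of a genotype correlated at 0.996 to 0.997 over all genes, and double-mutant arrays with the others at 0.977 to 0.982. The labels call the samples biological replicates but do not say whether pools of a genotype shared females, so p-values measure the spread between pools.

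All 14 oocyte markers lay above the percentile. Their summed linear intensity was 25936.5 to 26575 in the double mutant and 26990 to 28069 in control. It was 27114 to 27677 in the Rnf2 mutant and 27271 to 27981 in the Ring1 mutant. In the double mutant against control limma called 3 of the 14 lower and 1 higher, where 17.5% and 14.4% of all genes were. Lower were Figla, at 7.12 against 8.01 (adjusted p = 1.2e-05), Mos, at 9.59 against 10.10 (adjusted p = 0.000554), and Oosp1 (adjusted p = 0.0199). Higher was Nlrp5, at 11.25 against 11.03 (adjusted p = 0.00818). Of 14 granulosa and cumulus markers 8 lay above the percentile. Their sums were 725.9 to 912.8 in the double mutant and 738.1 to 1062 in control. They were 900.2 to 1177 in the Rnf2 mutant and 702.6 to 835.7 in the Ring1 mutant. Of these 14, limma called 1 lower in the double mutant than in control, Cyp19a1, at 7.06 against 7.83 (adjusted p = 3.42e-06). It called 1 higher, Nr5a2, at 8.78 against 8.40 (adjusted p = 0.00136). Against the Rnf2 mutant 7 of the 14 were called lower and 2 higher, where 16.3% and 14% of all genes were. Against the Ring1 mutant 1 was lower and 1 higher, where 16.6% and 15% of all genes were. Markers not called against control included Cyp11a1, at 4.98 in the double mutant and 6.26 in control, Star, at 3.81 and 4.88, and Inha, at 5.82 and 6.50. The defining markers Fshr, Amh and Foxl2 averaged 3.43, 3.03 and 3.82 in the double mutant, against 3.19, 3.20 and 4.00 in control. Of 8 stromal and vessel markers 4 lay above the percentile, and the sum of all 8 was 433.0 to 446.3 in the double mutant, against 578.2 to 603.6 over the other arrays. Of these 8, limma called 2 lower in the double mutant than in control. They were Myh11, at 6.76 against 7.74 (adjusted p = 3.9e-07), and Pecam1, at 7.75 against 8.07 (adjusted p = 0.000531). Limma called 1 higher, Dcn, at 3.91 against 3.28 (adjusted p = 0.00548), and the others were not called. Of 6 measured blood markers of 8 listed, 2 lay above the percentile, with sums of 57.6 to 62.3 in the double mutant and 55.5 to 60.6 elsewhere. Of these 6, limma called 1 higher in the double mutant than in control, Cd68, at 4.20 against 3.86 (adjusted p = 0.025). The part of other cells in the results below was not tested, and less RNA per oocyte cannot be told apart from fewer intact oocytes in a pool.

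Loss of both ligases was accompanied by small falls across most of complex 2. In the double mutant against control 7 of the 10 genes fell, 1 rose and 2 were not called (limma, adjusted p below 0.05). In this comparison 32% of all genes passed, 17.5% lower and 14.4% higher. Among genes above the percentile of silent genes 46.5% were called and 27.3% were lower. All 3 double-mutant arrays lay below all 3 control arrays for 9 of the 10 genes and above them for 1. Over all genes these shares were 24.8% and 18.3%. Against the Ring1 mutant the shares of all genes were 24.5% and 18.8%, and against the Rnf2 mutant 23.8% and 18.3%. The Rnf2 mutant lay entirely below control for 6.84% of all genes and entirely below the Ring1 mutant for 8.03%. The median change of the 10 genes was -0.22 log2, against -0.04 over all genes and -0.06 over genes above that percentile. Over the most abundant 25% of genes the median change was -0.11. Ezhip had by far the deepest fall, and the falls of the other 6 genes lay between 0.20 and 0.34 on the log2 scale.

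**Figure D1:**
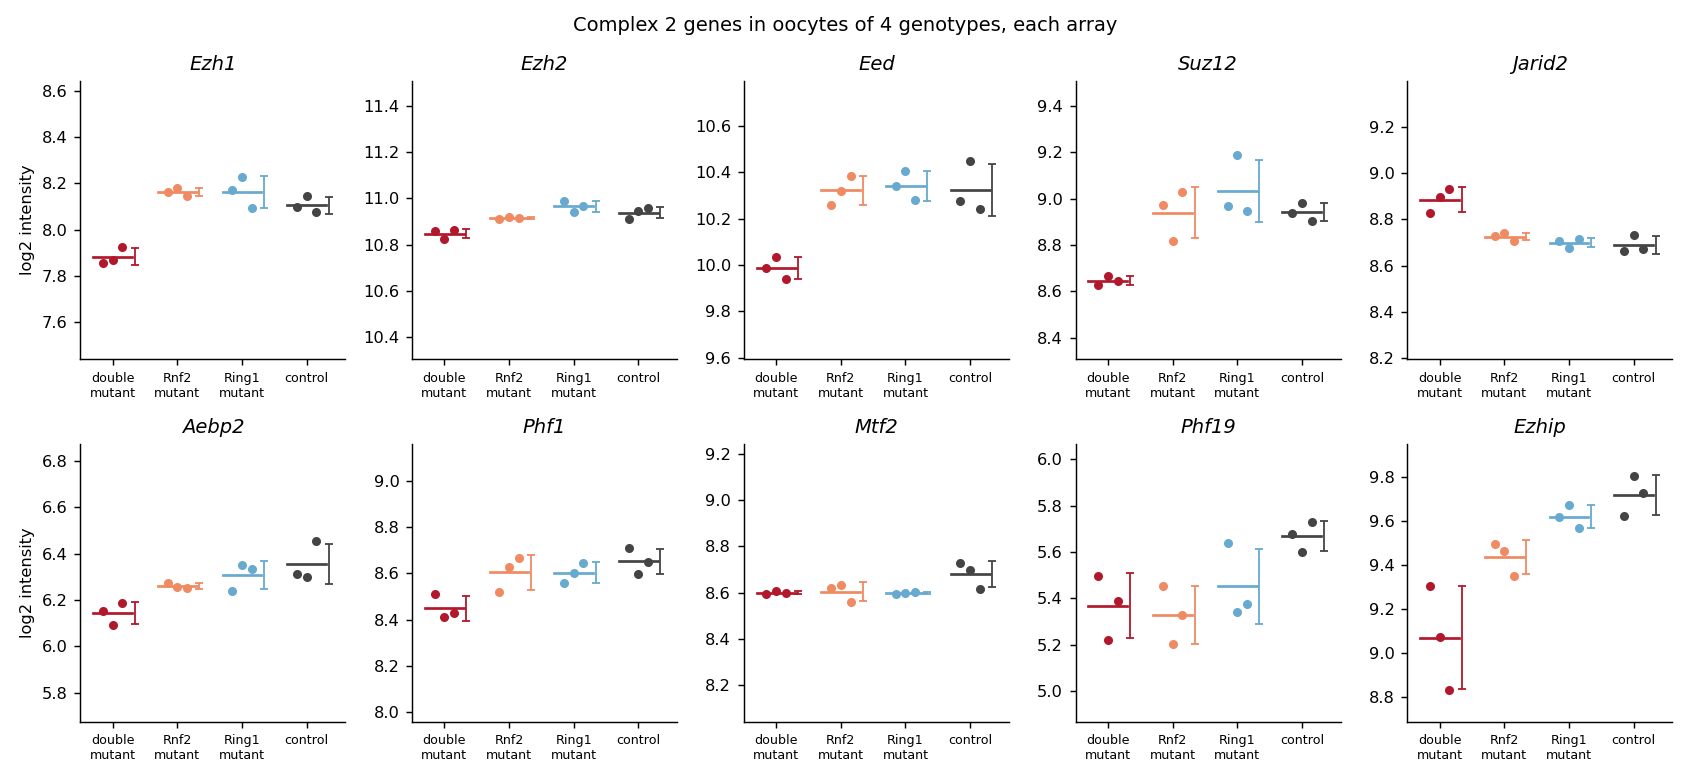
Log2 intensity of the 10 complex 2 genes on each array, in the double mutant, the Rnf2 mutant, the Ring1 mutant and control. Points are arrays, horizontal lines are means and bars are SD (n = 3), and the scale differs between panels. Ezhip reads 8.84 to 9.31 in the double mutant and 9.62 to 9.81 in control, and Jarid2 alone is higher in the double mutant.

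Of the catalytic subunits, Ezh1, the form best known from non-dividing cells, fell. Ezh1 read 7.86, 7.87 and 7.92 in the double mutant. It read 8.16, 8.18 and 8.14 in the Rnf2 mutant and 8.17, 8.23 and 8.09 in the Ring1 mutant, against 8.10, 8.15 and 8.08 in control. Every double-mutant array lay below all 9 others, and the other genotypes overlapped. Ezh1 fell by 0.22 ± 0.06 log2 in the double mutant against control, to 85.7% of its level (SE; limma, adjusted p = 0.00934).

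Ezh2, the form best known from proliferating cells, kept within a narrow band. Ezh2 read 10.86, 10.82 and 10.86 in the double mutant, 10.91, 10.92 and 10.91 in the Rnf2 mutant, 10.99, 10.94 and 10.97 in the Ring1 mutant and 10.91, 10.95 and 10.96 in control. The double-mutant arrays lay below all others, but the difference from control was -0.09 ± 0.05 log2 (limma, adjusted p = 0.219), with a 95% interval of -0.20 to 0.02. The intervals of Eed (-0.49 to -0.18) and Suz12 (-0.46 to -0.13) overlapped that of Ezh2, and the genes were not tested against each other. With an intensity trend and robust variance Ezh2 was called lower, at -0.09 (limma, adjusted p = 0.0213). With arrays centred on their median it was also called, at -0.21 (limma, adjusted p = 0.01).

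Both other core subunits fell. Eed, the reader of the complex's own mark, read 9.99, 10.04 and 9.94 in the double mutant. It read 10.26, 10.32 and 10.38 in the Rnf2 mutant and 10.34, 10.41 and 10.28 in the Ring1 mutant, against 10.27, 10.45 and 10.24 in control. The double mutant again lay apart from 3 groups that overlapped. The fall was 0.34 ± 0.07 log2, to 79.3% of control (SE; limma, adjusted p = 0.00269).

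Suz12, the scaffold, read 8.63, 8.67 and 8.65 in the double mutant. It read 8.97, 8.82 and 9.03 in the Rnf2 mutant and 8.97, 9.19 and 8.95 in the Ring1 mutant, against 8.94, 8.98 and 8.90 in control. The Ring1 mutant held the widest spread (SD 0.13). Suz12 fell by 0.30 ± 0.08 log2 in the double mutant, to 81.5% of control (SE; limma, adjusted p = 0.0103). The double-mutant arrays did not overlap any other group.

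Ezhip, the X-linked inhibitor, had the widest range of means. It averaged 9.07 ± 0.24 in the double mutant, 9.44 ± 0.08 in the Rnf2 mutant, 9.62 ± 0.05 in the Ring1 mutant and 9.72 ± 0.09 in control (SD, n = 3). Its arrays read 9.31, 9.07 and 8.84 in the double mutant, 9.50, 9.46 and 9.35 in the Rnf2 mutant, 9.62, 9.67 and 9.57 in the Ring1 mutant and 9.62, 9.81 and 9.73 in control. The double mutant lay below the Rnf2 mutant, the Rnf2 mutant lay below the Ring1 mutant, and only the Ring1 mutant and control overlapped.

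Ezhip fell by 0.65 ± 0.10 log2 in the double mutant against control, to 63.8% of its level (SE; limma, adjusted p = 0.000346). Only 3.03% of all genes had a lower value in that comparison. The double mutant was also lower than the Ring1 mutant, by -0.55 ± 0.10 (limma, adjusted p = 0.00124), and than the Rnf2 mutant, by -0.37 ± 0.10 (limma, adjusted p = 0.0164). The Rnf2 mutant differed from control by -0.28 ± 0.10 without passing the test (limma, adjusted p = 0.612), with a 95% interval of -0.51 to -0.06. The Ring1 mutant and control, at -0.10 ± 0.10 (limma, adjusted p = 0.813), and both single mutants, at -0.18 ± 0.10 for Rnf2 mutant minus Ring1 mutant (limma, adjusted p = 0.565), were neighbours in this order that the test did not separate. The double-mutant SD of 0.24 was the widest of any complex 2 gene. Within the double mutant the array with the highest Ezhip, replicate 1, also had the highest granulosa marker sum (912.8, against 744.1 and 725.9). The other groups showed the opposite. The array with the highest Ezhip had the lowest sum in the Rnf2 mutant (replicate 1, 900.2) and the Ring1 mutant (replicate 2, 702.6). In control the array with the lowest Ezhip, replicate 1, had the highest sum (1062). A link between Ezhip and these markers was not tested.

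Jarid2, an accessory subunit that binds nucleosomes and helps to recruit the complex, was the only rise among the 10. It read 8.83, 8.89 and 8.93 in the double mutant. It read 8.73, 8.74 and 8.71 in the Rnf2 mutant and 8.71, 8.68 and 8.71 in the Ring1 mutant, against 8.66, 8.73 and 8.67 in control. Every double-mutant array lay above all 9 others. The rise was 0.19 ± 0.05 log2, to 114% of control (SE; limma, adjusted p = 0.0158).

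Aebp2, its partner in the same arm, moved the other way. Aebp2 read 6.15, 6.09 and 6.19 in the double mutant, 6.28, 6.26 and 6.25 in the Rnf2 mutant, 6.24, 6.35 and 6.34 in the Ring1 mutant and 6.31, 6.30 and 6.46 in control. It fell by 0.21 ± 0.06 log2 in the double mutant against control (SE; limma, adjusted p = 0.0212). The double mutant lay below all other arrays, but its differences from the Rnf2 mutant (-0.12 ± 0.06) and the Ring1 mutant (-0.16 ± 0.06) were not called (limma, adjusted p = 0.203 and 0.068).

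The Polycomb-like subunits bind unmethylated CpG-rich DNA and help to bring the complex to it. Phf1, which lies on chromosome 17 like Ring1, read 8.51, 8.41 and 8.43 in the double mutant, 8.52, 8.63 and 8.67 in the Rnf2 mutant, 8.56, 8.60 and 8.65 in the Ring1 mutant and 8.71, 8.60 and 8.65 in control. The double-mutant arrays lay below all others, by a narrow margin. Phf1 fell by 0.20 ± 0.06 log2 in the double mutant against control (SE; limma, adjusted p = 0.0263). In the Ring1 mutant, which carries the same Ring1 alleles, it differed from control by -0.05 ± 0.06 (limma, adjusted p = 0.858), with a 95% interval of -0.19 to 0.09. Phf1 was not called in the double mutant against the Ring1 mutant, and any part of linkage to Ring1 was not tested.

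Mtf2 did not pass the test in any comparison. It read 8.59, 8.61 and 8.60 in the double mutant, 8.62, 8.64 and 8.56 in the Rnf2 mutant, 8.59, 8.60 and 8.60 in the Ring1 mutant and 8.73, 8.70 and 8.62 in control. Control was the highest group, and the 3 mutant means lay within 0.01 of each other. The double mutant differed from control by -0.08 ± 0.05 log2 (limma, adjusted p = 0.312), with a 95% interval of -0.20 to 0.04.

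Phf19 had its highest mean in control, and only the Ring1 mutant overlapped control. It read 5.50, 5.22 and 5.39 in the double mutant, 5.45, 5.20 and 5.33 in the Rnf2 mutant, 5.64, 5.34 and 5.38 in the Ring1 mutant and 5.68, 5.60 and 5.73 in control. The double mutant fell by 0.30 ± 0.10 log2 against control (SE; limma, adjusted p = 0.0336). The Rnf2 mutant differed by a larger amount, -0.34 ± 0.10, which was not called (limma, adjusted p = 0.425, unadjusted p = 0.0047). The double mutant and the Rnf2 mutant differed by 0.04 ± 0.10 (limma, adjusted p = 0.826), with an interval of -0.18 to 0.25.

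**Figure D2:**
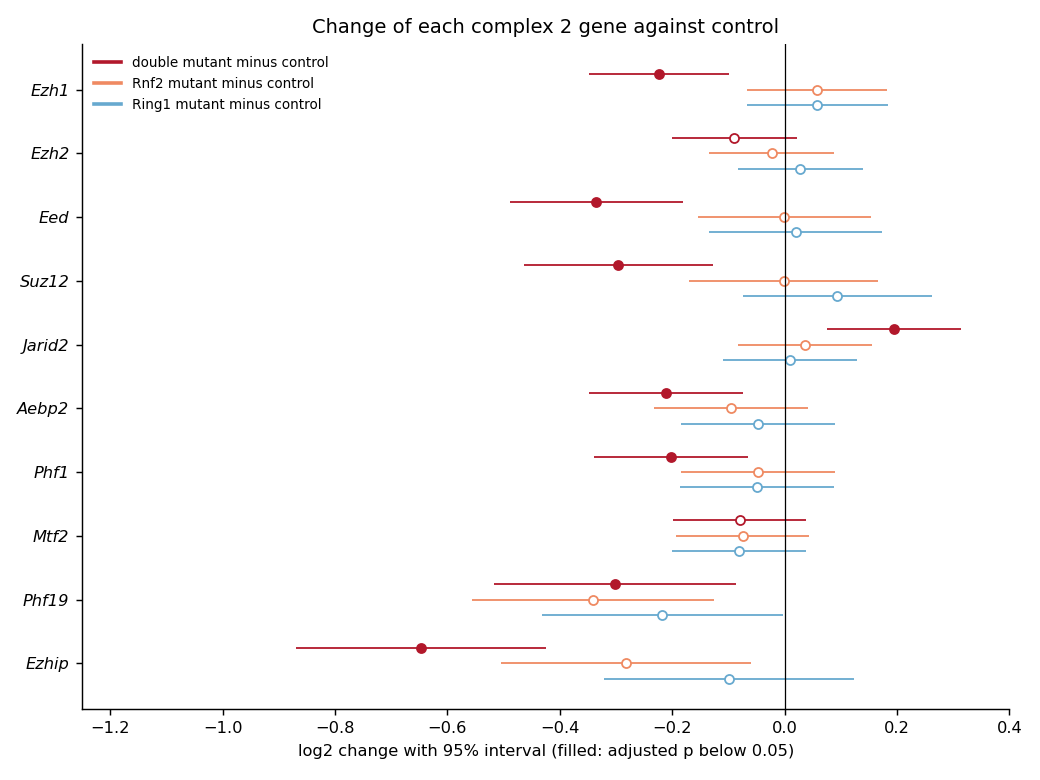
Log2 change of each complex 2 gene in the double mutant, the Rnf2 mutant and the Ring1 mutant, each against control, with 95% intervals of the fit across all arrays. Filled points passed an adjusted p of 0.05. They occur in the double mutant only, with Ezhip lowest at -0.65 and Jarid2 highest at 0.19, and all comparisons share the same 3 control arrays.

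In single mutants no complex 2 gene was called. The Ring1 mutant had 167 called genes in all (0.774%), and the Rnf2 mutant had 30 (0.139%). At an unadjusted p below 0.05, limma gave 1 of the 10 genes in the Ring1 mutant, Phf19, and 2 in the Rnf2 mutant, Phf19 and Ezhip. The shares of all genes given here are for adjusted p. They are no background for this looser threshold, at which the share of all genes was not counted. The intervals of the 10 genes against control reached from -0.43 (Phf19) to 0.26 (Suz12) in the Ring1 mutant and from -0.56 (Phf19) to 0.18 (Ezh1) in the Rnf2 mutant. Their medians were -0.02 and -0.04 log2, against -0.01 over all genes in each comparison. In the Rnf2 mutant minus Ring1 mutant comparison none of the 10 was called either, where 0.95% of genes were, and limma gave 0 of them an unadjusted p below 0.05.

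Set against each single mutant, the double mutant showed fewer calls than against control. It had 5 of the 10 genes called against the Ring1 mutant, where 31.6% of all genes were called, and 5 against the Rnf2 mutant, where 30.3% were. In the first 15% of all genes were higher and 16.6% lower, and in the second 14% were higher and 16.3% lower. In both cases Jarid2 was higher and Ezh1, Eed, Suz12 and Ezhip were lower. Ezh1 differed by -0.28 ± 0.06 from each single mutant (limma, adjusted p = 0.00225 for the Ring1 mutant and 0.00238 for the Rnf2 mutant). Suz12 differed by -0.39 ± 0.08 from the Ring1 mutant and by -0.29 ± 0.08 from the Rnf2 mutant (limma, adjusted p = 0.0019 and 0.0113). Against the Rnf2 mutant the count was 3 without Rnf2 mutant replicate 1, 2 or 3 or double mutant replicate 3. Jarid2 lost its call in all 4 cases, Suz12 without Rnf2 mutant replicate 3 and Ezhip in the other 3. Jarid2 also lost it without double mutant replicate 2. Ezh1 and Eed remained called against the Rnf2 mutant without any 1 array. Against the Ring1 mutant Jarid2 lost its call without Ring1 mutant replicate 1 or 2 or double mutant replicate 2 or 3. Ezh1, Eed, Suz12 and Ezhip remained called there without any 1 array. These comparisons share the double-mutant arrays with each other and with the one against control.

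Whether the double mutant departed from the sum of both single changes was tested by the Ring1 by Rnf2 interaction, the effect of Rnf2 loss without Ring1 minus that with Ring1. Of the 10 genes 3 passed, all lower, against 19% of all genes called and 9.01% lower. Ezh1 changed by -0.22 log2 in the double mutant, against a sum of 0.12, an interaction of -0.34 ± 0.08 (limma, adjusted p = 0.0111). Eed changed by -0.34 against a sum of 0.02, an interaction of -0.35 ± 0.10 (limma, adjusted p = 0.0259). Suz12 changed by -0.30 against a sum of 0.09, an interaction of -0.39 ± 0.11 (limma, adjusted p = 0.0261). The calls of Eed and Suz12 were each lost without control replicate 1 or 3, Ring1 mutant replicate 2 or Rnf2 mutant replicate 3. Eed was also lost without Ring1 mutant replicate 1, Rnf2 mutant replicate 2 or double mutant replicate 3, and Suz12 without Rnf2 mutant replicate 1 or double mutant replicate 1. The adjusted p in limma then lay between 0.05 and 0.0653 for Eed and between 0.0517 and 0.0635 for Suz12. Both calls were also lost after quantile normalization (limma, adjusted p = 0.0656 and 0.0507) and with arrays centred on the most abundant 25% of genes (limma, adjusted p = 0.0695 and 0.0704). Ezh1 was called in each of these settings.

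Ezhip and Phf19 had wide interaction estimates. Ezhip changed by -0.65 in the double mutant, against a sum of -0.38, an interaction of -0.27 ± 0.14 with an interval of -0.58 to 0.05 (limma, adjusted p = 0.249). Phf19 changed by -0.30 against a sum of -0.56, an interaction of 0.26 ± 0.14 with an interval of -0.05 to 0.56 (limma, adjusted p = 0.248). For neither gene did the test separate the double mutant from the sum. Without double mutant replicate 1 the Ezhip interaction was called, at -0.38 (limma, adjusted p = 0.0492).

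**Figure D3:**
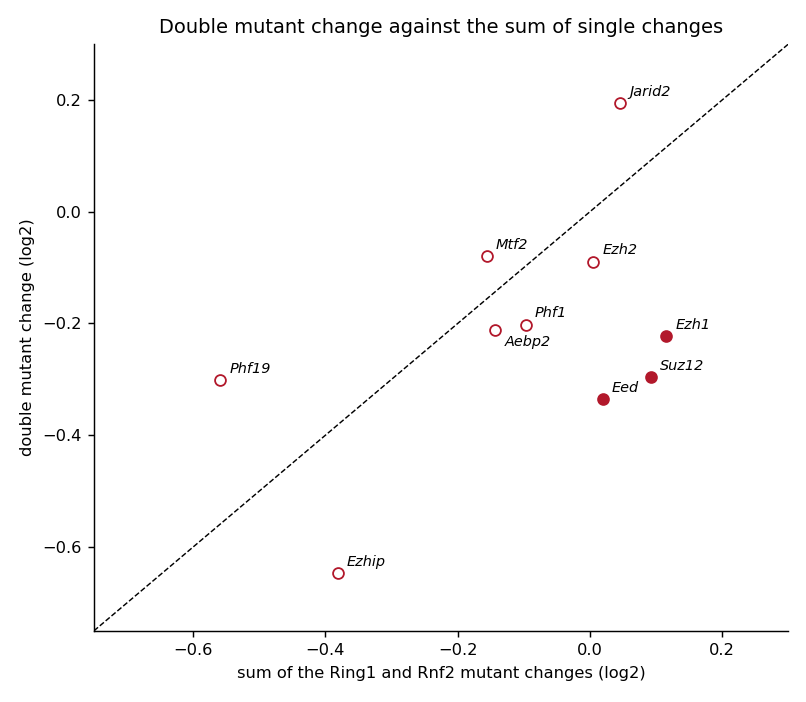
Log2 change of each complex 2 gene in the double mutant against control (vertical axis) and the sum of its Ring1 mutant and Rnf2 mutant changes (horizontal axis); the dashed line marks equality and filled points passed the interaction test. Ezh1, Eed and Suz12 lie below the line, as do Ezh2, Aebp2, Phf1 and Ezhip, and Phf19, Jarid2 and Mtf2 lie above it. Both axes use the same control arrays.

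The sizes of these changes depended on how arrays were scaled. In the double mutant against control, centring each array on the most abundant 25% of genes moved the median of all genes from -0.04 to 0.07 log2, and centring on the array median moved it to -0.16. Called genes were 45.2% higher as deposited, 67.1% with the abundant genes and 23.2% with the median. With the abundant genes 3 of the 10 were called, Eed and Ezhip lower and Jarid2 higher. In that setting 4757 of all 21587 genes were higher and 2330 lower. With the median 9 of the 10 were called, all lower, where 2246 of all genes were higher and 7425 lower. As deposited these counts over all genes were 3119 and 3787. Eed and Ezhip were called lower under every alternative run, with changes of -0.46 to -0.22 for Eed and -0.77 to -0.53 for Ezhip. Jarid2 stayed positive throughout, from 0.07 to 0.31, but was not called with the median. Ezh2 and Mtf2, not called as deposited, turned from below 0 to 0.02 and 0.03 with the abundant genes.

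**Figure D4:**
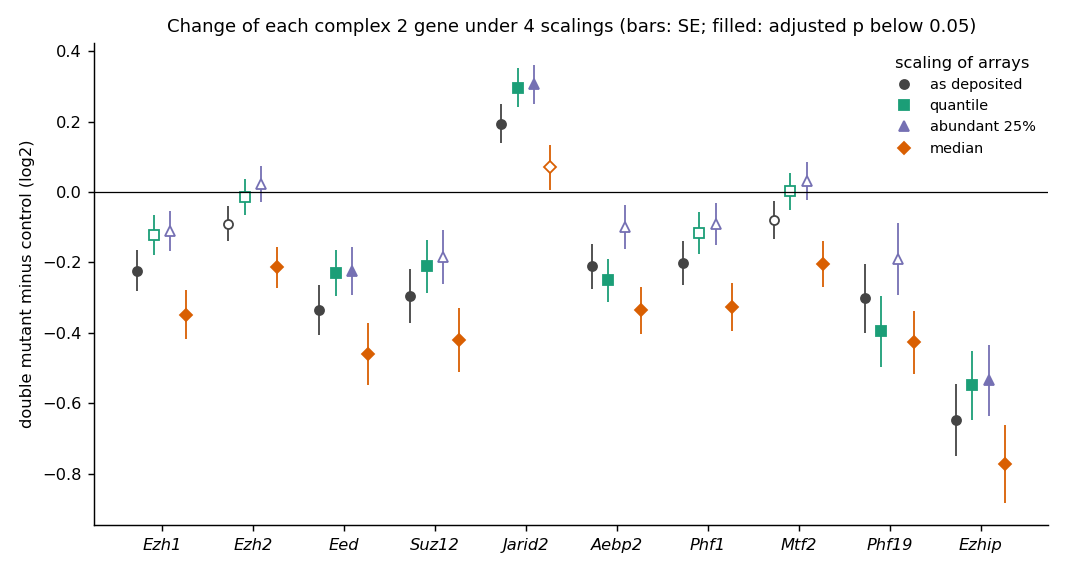
Log2 change of each complex 2 gene in the double mutant against control under 4 scalings of the arrays, with SE bars; filled points passed an adjusted p of 0.05. Ezhip and Eed stay filled and below 0 in each scaling, while Ezh1, Suz12, Jarid2, Aebp2, Phf1 and Phf19 are open in at least 1 of them.

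Leaving out arrays also touched the weaker calls. The double-mutant count of 8 called against control became 5 without control replicate 1, control replicate 3, double mutant replicate 2 or double mutant replicate 3. Phf1 and Phf19 lost their calls in each of these cases, with limma adjusted p of 0.0586 to 0.096 for Phf1 and 0.0652 to 0.133 for Phf19. Jarid2 lost it without control replicate 1 or double mutant replicate 3 (limma, adjusted p = 0.0546 and 0.0586), and Aebp2 without control replicate 3 or double mutant replicate 2 (limma, adjusted p = 0.0905 and 0.0754). Ezh1, Eed, Suz12 and Ezhip were called without any 1 array.

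The promoters of these genes differed in CpG content, which the choice of genes did not use. In RefSeq's windows of 250 bases before to 50 after each start (GRCm38.p6), all 10 genes had at least 1 window, 14 in all. Of the 10 genes 9 had a window above the median of 7 CpG over 32851 windows, with a median of 23 over the 14. Suz12 held 41 CpG, more than 96.5% of all windows, and Eed held 17. Ezhip, the gene with the deepest fall, held 5, below that median. These 3 windows are shown because Ezhip and Eed had the lowest changes in the double mutant and Suz12 holds the most CpG; capitals mark each CpG, and all read 5′ to 3′ on the gene's strand. The Ezhip window lies at chrX:6083371-6083670 on the minus strand, the Eed window at chr7:89980927-89981226 on the minus strand and the Suz12 window at chr11:79992856-79993155 on the plus strand.
Ezhip: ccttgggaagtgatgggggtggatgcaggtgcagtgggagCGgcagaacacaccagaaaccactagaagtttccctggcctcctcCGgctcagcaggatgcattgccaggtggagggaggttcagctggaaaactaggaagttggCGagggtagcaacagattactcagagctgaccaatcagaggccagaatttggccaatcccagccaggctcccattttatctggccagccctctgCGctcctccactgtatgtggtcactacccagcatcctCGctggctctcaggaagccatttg
Eed: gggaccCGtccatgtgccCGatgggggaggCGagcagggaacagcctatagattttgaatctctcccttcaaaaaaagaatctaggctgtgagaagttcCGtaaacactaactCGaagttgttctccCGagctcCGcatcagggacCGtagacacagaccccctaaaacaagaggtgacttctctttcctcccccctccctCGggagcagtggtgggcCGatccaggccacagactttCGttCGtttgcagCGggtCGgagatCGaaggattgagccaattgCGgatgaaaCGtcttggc
Suz12: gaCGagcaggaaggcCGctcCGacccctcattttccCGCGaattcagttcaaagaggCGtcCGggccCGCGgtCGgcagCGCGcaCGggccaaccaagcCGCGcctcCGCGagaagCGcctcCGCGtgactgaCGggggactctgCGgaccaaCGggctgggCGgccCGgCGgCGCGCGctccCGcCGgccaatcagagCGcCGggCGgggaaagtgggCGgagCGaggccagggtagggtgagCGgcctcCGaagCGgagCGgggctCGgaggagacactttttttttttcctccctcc

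A pair of motifs of the complex 1 variant that silences germline genes was searched on both strands. The E-box CACGTG, bound by Max with Mga, was in 0 of the 14 windows and in 7.15% of all windows. The E2F-type motif TTCCCGC was in 2 of the 14, those of Suz12 and Phf19, and in 4.6% of all. These are matches of letters in a window only.

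The genes whose profile over the 12 arrays was closest to that of Ezhip, after centring each on its own mean, were Rnf126, Dtymk and Plekhj1. Rnf126 had a root mean square difference of 0.075 log2 from Ezhip, Dtymk of 0.076 and Plekhj1 of 0.079. In the double mutant against control they changed by -0.55, -0.62 and -0.58. For Eed the closest were Tmem60, Cox17 and Nlrp4a, at 0.037, 0.038 and 0.042 log2, with changes of -0.35, -0.33 and -0.32. These genes are described by their profile only.

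Other parts of the H3K27 methylation pathway were taken from short lists. Of 5 further partners of the complex, 2 rose in the double mutant against control and 0 fell, where 14.4% of all genes were higher. Their median change was 0.12 log2, against -0.04 over all genes. Epop, which joins the Polycomb-like arm and links it to elongin, read 4.69, 4.60 and 4.38 in the double mutant, against 4.23, 3.74 and 4.10 in control. It rose by 0.53 ± 0.12 log2 from near the level of silent genes (SE; limma, adjusted p = 0.00517). Lcorl, a gene of the PALI type that also joins that arm, rose by 0.28 ± 0.09 (limma, adjusted p = 0.0359), but its values of 3.05 to 3.24 in the double mutant and 2.82 to 2.92 in control lay below that level, and it was called in 6 of 14 alternatives (limma, adjusted p up to 0.228).

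The histone-binding subunits, which other chromatin complexes share, were not called against control. Rbbp4 read 8.49, 8.43 and 8.49 in the double mutant, against 8.38, 8.34 and 8.33 in control, a difference of 0.12 ± 0.05 (limma, adjusted p = 0.123). Rbbp4 was called higher in the double mutant than in the Ring1 mutant, by 0.22 ± 0.05, and than in the Rnf2 mutant, by 0.16 ± 0.05 (limma, adjusted p = 0.00782 and 0.0405). Against control, Rbbp7 differed by 0.03 ± 0.05 (limma, adjusted p = 0.706) and Lcor, another PALI gene, by 0.08 ± 0.08 (limma, adjusted p = 0.527). A second, dimmer probe set of Lcor read -0.17.

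Of 3 H3K27 demethylase genes 2 fell in the double mutant against control and 0 rose, where 17.5% of all genes and 27.3% of genes above the percentile of silent genes were lower. Their median change was -0.42 log2, against -0.04 over all genes. Kdm6a, on the X chromosome, read 8.12, 8.12 and 8.09 in the double mutant, against 8.54, 8.54 and 8.50 in control, and fell by 0.42 ± 0.06 log2 (SE; limma, adjusted p = 0.000156). Kdm6b read 8.11, 8.11 and 7.92 in the double mutant, against 8.65, 8.67 and 8.66 in control, and fell by 0.61 ± 0.06 (SE; limma, adjusted p = 1.08e-05). A second, dim probe set of Kdm6b read -0.15. Neither gene was called in a single mutant against control, and both passed the interaction test. The Y-linked homologue Uty read 2.28 to 2.62 on all 12 arrays, as silent genes do.

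Of 6 imprinted genes that maternal H3K27 methylation silences in the early mouse embryo, 3 rose in the double mutant against control and 0 fell, where 14.4% of all genes were higher. Their median change was 0.41 log2, against -0.04 over all genes. Smoc1, a secreted calcium-binding protein gene, read 6.61, 6.52 and 6.72 in the double mutant, against 3.72, 3.83 and 3.69 in control, a rise of 2.87 ± 0.10 log2 (SE; limma, adjusted p = 8.25e-10). Sfmbt2, itself a Polycomb group gene, read 4.86, 4.91 and 4.63 in the double mutant, against 2.75, 2.74 and 2.81 in control, a rise of 2.03 ± 0.10 (SE; limma, adjusted p = 1.33e-08). Both were at or near the level of silent genes in every other genotype.

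Gab1, a signalling adaptor gene, rose by 0.71 ± 0.16 log2 against control (limma, adjusted p = 0.00375). It read 4.65, 4.37 and 4.96 in the double mutant, against 4.17, 3.85 and 3.82 in control. The Rnf2 mutant, at 4.03, 4.21 and 4.47, overlapped the double mutant, and the Ring1 mutant, at 4.13, 4.25 and 3.91, did not. The Gab1 interaction was called in 0 of 20 alternatives. Against the Rnf2 mutant 2 of the 6 imprinted genes were called higher, where 14% of all genes were. Jade1, Slc38a4 and Xist were not called against control. Jade1 differed by 0.11 ± 0.14, Slc38a4 by -0.02 ± 0.11 and Xist by -0.03 ± 0.23 (limma, adjusted p = 0.599, 0.917 and 0.942). All 3 read below the 95th percentile of silent genes on average in every genotype.

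**Figure D5:**
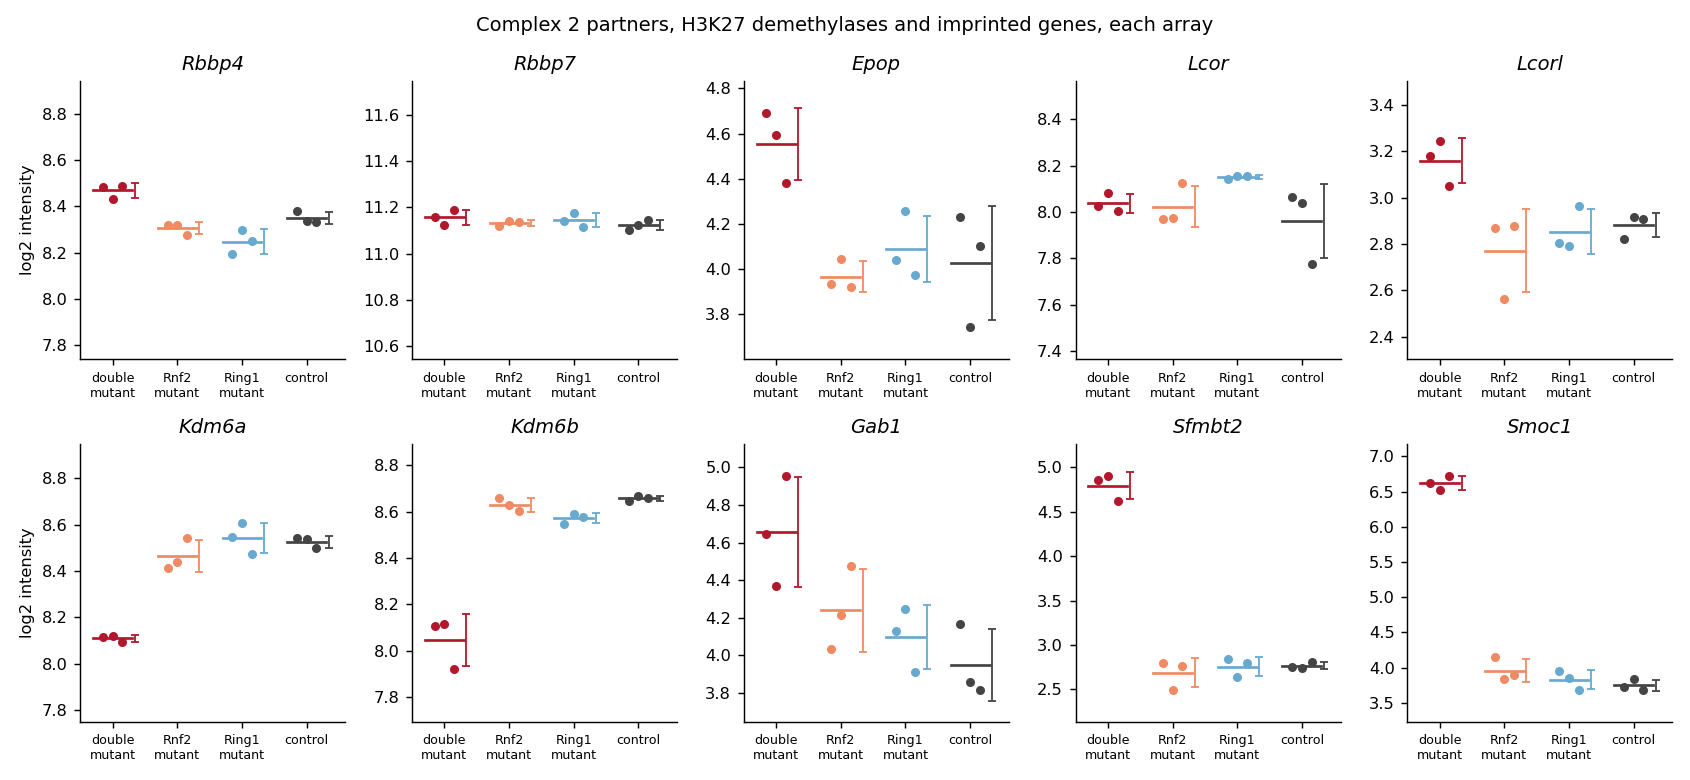
Log2 intensity on each array of 5 complex 2 partners, the demethylase genes Kdm6a and Kdm6b, and the imprinted genes Gab1, Sfmbt2 and Smoc1, in the double mutant, the Rnf2 mutant, the Ring1 mutant and control. Points are arrays, lines are means and bars are SD (n = 3); panel scales differ. Kdm6a and Kdm6b are lower in all 3 double-mutant arrays, at up to 8.12, and Smoc1 is higher, at 6.52 or more.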

How the data were processed

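RNA of 12 oocyte pools was amplified as whole-transcriptome cDNA and hybridised to whole-transcript arrays, per the labels' protocols. Values are log2 intensities of probe sets in the deposited table. R 2.10.0 and affy appear in the submitters' processing notes, and how the authors corrected, summarized and scaled the arrays was not given in the sources used here. Medians of the arrays were 3.81 to 3.93. The values come with no detection calls, and the number of arrays limits their precision. No arrays held identical values.

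The platform annotation gave a single gene for 23394 of 34760 probe sets, several for 1218 and none for 10117, and lacked 31. A GRCm38.p6 RefSeq table updated the names. Gene numbers matched 19669 of them, accessions 574, current symbols 939 and older ones 661; the remaining 1551 were left as they were. Probe sets naming several genes were not used. The probe set with the highest mean stood for each of 1068 genes with several. One mean per genotype was fitted to all 12 arrays with limma 3.58.1 (lmFit, eBayes; R 4.3.3), for 21587 genes and 7 comparisons, with Benjamini-Hochberg adjustment within each and calls at 0.05. The fit was tested on simulated data. Groups came from the sample titles. Replicate numbers were not treated as pairs in this fit. Deviations of same-numbered pairs correlated at -0.158 to 0.205, with 4 of 18 above 0.1, and those of other pairs at -0.15 to 0.145. For 5 of the 12 samples the closest sample of another group had the same number.

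The genes and lists were chosen with earlier results of these data known. Named genes are the 10 genes, Ring1, Rnf2, the short lists and, for the 2 genes with the largest double-mutant change, the 3 most alike. The named oocyte, granulosa, stromal, vessel and blood markers were picked from the marker lists after their values were seen. Alternatives covered probe sets, dim genes, scalings, variance model, array weights, groups fitted, the replicate block and each array left out. Silent genes were represented by 1047 olfactory receptor genes.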

Additional observations from a re-analysis of the deposited data

Results flagged for a closer look

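Beside the 3 complex 2 genes described above, 6 genes of the short lists passed the interaction test in limma. Their effect of Rnf2 loss differed without and with Ring1. They were 2 of the 5 further partners and 2 of the 6 imprinted genes, all higher, and 2 of the 3 demethylase genes, lower. Over all 21587 genes 19% were called in this test, 2166 higher and 1946 lower. Ezh1 (-0.34), Eed (-0.35) and Suz12 (-0.39) were lower than the sum of the single mutants, as were Kdm6a (-0.37; limma, adjusted p = 0.00786) and Kdm6b (-0.50; limma, adjusted p = 0.00182). Higher were Rbbp4 (0.26; limma, adjusted p = 0.0315), Lcorl (0.42; limma, adjusted p = 0.041), Sfmbt2 (2.12) and Smoc1 (2.58). The calls of Kdm6a, Kdm6b, Sfmbt2 and Smoc1 held under every alternative that could give a value, those of Rbbp4 and Lcorl under 9 of 20 and 9 of 19.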

How the results depend on the processing

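The number of complex 2 genes called in the double mutant against control was 8, 3 when arrays were centred on the most abundant 25% of genes, 5 when only the groups compared were fitted, and 5 to 8 without any 1 array. Against the Ring1 mutant it was 5, and 8 with dim genes left out, where fewer genes were tested, and 4 to 5 without any 1 array. Against the Rnf2 mutant it was 5, 3 with the abundant genes or only the groups compared, and 3 to 5 without any 1 array. For the interaction it was 3, and 1 after quantile normalization or with the abundant genes, and 1 to 3 without any 1 array. It was 0 for both single mutants in every alternative. With the replicate block it was 8 for the double mutant against control, 4 against the Rnf2 mutant, and the block ended the call of Jarid2 there. Except where construction shows it, the cause was not tested. Among all genes, the Ring1 mutant had 167 calls, 307 with an intensity trend and robust variance, 47 with only the groups compared and 70 to 120 without any 1 array. The Rnf2 mutant had 30, and 64, 6 and 10 to 28 in the same settings, with 18 under the block. Rnf2 mutant minus Ring1 mutant had 205, and 395, 64 and 66 to 153, with 332 when dim genes were left out.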
